A study of Homo sapiens with 6 samples.

Results

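Cadherins, mesenchymal structural genes, and the transcription factors of epithelial-mesenchymal transition (EMT) were examined in oral squamous cell carcinoma (OSCC) cells after knockdown of the long noncoding RNA DLEU1. The members were chosen by name: they are all 15 probes, of 50599 on each array, that the scanner files list under CDH1, CDH2, CDH3, VIM, FN1, SNAI1, SNAI2, ZEB1, ZEB2, or TWIST1. HSC-3, KON, and Ca9-22 are established OSCC cell lines, and each was transfected with siDLEU1-2, an siRNA that targets DLEU1, or with a control siRNA (siCtrl), with 1 one-color array per line and siRNA. Cells were harvested at 72 h, and 100 ng of total RNA was labeled. The 3 lines are therefore the only replicates, siDLEU1-2 is the only siRNA against DLEU1 on the arrays, and both siRNAs were delivered with the same transfection reagent.

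EMT is the program by which epithelial cells loosen their contacts and gain motility. Cadherins are calcium-dependent adhesion proteins of the cell surface, and carcinoma cells in EMT often lose E-cadherin (CDH1) and gain N-cadherin (CDH2). The zinc finger proteins SNAI1, SNAI2, ZEB1, and ZEB2 bind E-box motifs and are known as repressors of CDH1, while TWIST1 is a basic helix-loop-helix factor known to drive the same program.

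The reagent and those member probes whose own sequence bears on the results are shown first. The strands of siDLEU1-2 are given because every comparison of siRNAs rests on them, with the seed (bases 2 to 8 of the antisense strand) in capitals.
siDLEU1-2 sense: cagggguuaucgcacuuaagc
siDLEU1-2 antisense: uUAAGUGCgauaaccccugua
A match to this seed, GCACTTA, was searched on the strand that each probe represents. It lies in 0 of the 15 member probes and in 57 of the 19956 probes that could be tested. The probes cover only 60 bases of a transcript each, so the remainder of these transcripts was not searched. The next 4 probes are shown because VIM separates all 3 lines, FN1 and ZEB2 turn on the brightness of 1 spot, and only 1 of the 2 TWIST1 probes gave a measurable signal. They are written as the files give them, with positions on hg19 (chr10:17278347-17279256 for VIM, chr2:216288217-216288895 for FN1, chr2:145182363-145182422 for ZEB2 probe 1, and chr7:19156462-19156521 for TWIST1 probe 1).
VIM: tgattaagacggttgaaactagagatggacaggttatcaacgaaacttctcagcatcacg
FN1: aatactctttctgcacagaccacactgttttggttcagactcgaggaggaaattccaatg
ZEB2 probe 1: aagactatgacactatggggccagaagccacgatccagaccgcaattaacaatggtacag
TWIST1 probe 1: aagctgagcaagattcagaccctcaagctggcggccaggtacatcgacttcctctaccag
The 60 bases of the VIM probe cover 910 bases of the genome and those of FN1 cover 679, so both cross an intron. The files list the FN1 probe under the transcript NM_054034, and whether it also measures other FN1 transcripts was not tested.

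Levels are given as relative signal, which is the processed signal of a probe divided by the 75th percentile of its array. That percentile was 200 to 257 in processed signal, and an array had 43.0% to 45.7% of its probes well above background. A level is comparable between arrays for 1 probe, and signals of different probes are not on 1 scale. A fold change divides the siDLEU1-2 level of a line by its siCtrl level. The test was limma, over the 19956 probes for which each line had 1 or 2 arrays well above background. Of the 15 member probes, 8 passed this filter, for 7 genes, and 7 did not. CDH2 and SNAI1 passed in HSC-3, and TWIST1 in KON, through the brighter array only, so their calls are not a fair sample of the members. DLEU1 itself fell in every line, with a log2 fold change of -4.10 (HSC-3), -3.63 (KON), and -3.44 (Ca9-22) (adjusted p = 0.0227). Of 8 squamous epithelial markers, 7 or 8 were well above background on every array. Of 8 fibroblast markers, COL1A1 was so on all 6 arrays and DCN on 1, while the remaining 6, including COL1A2 and COL3A1, were so on none. The leukocyte marker PTPRC was well above background on no array.

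**Figure D1:**
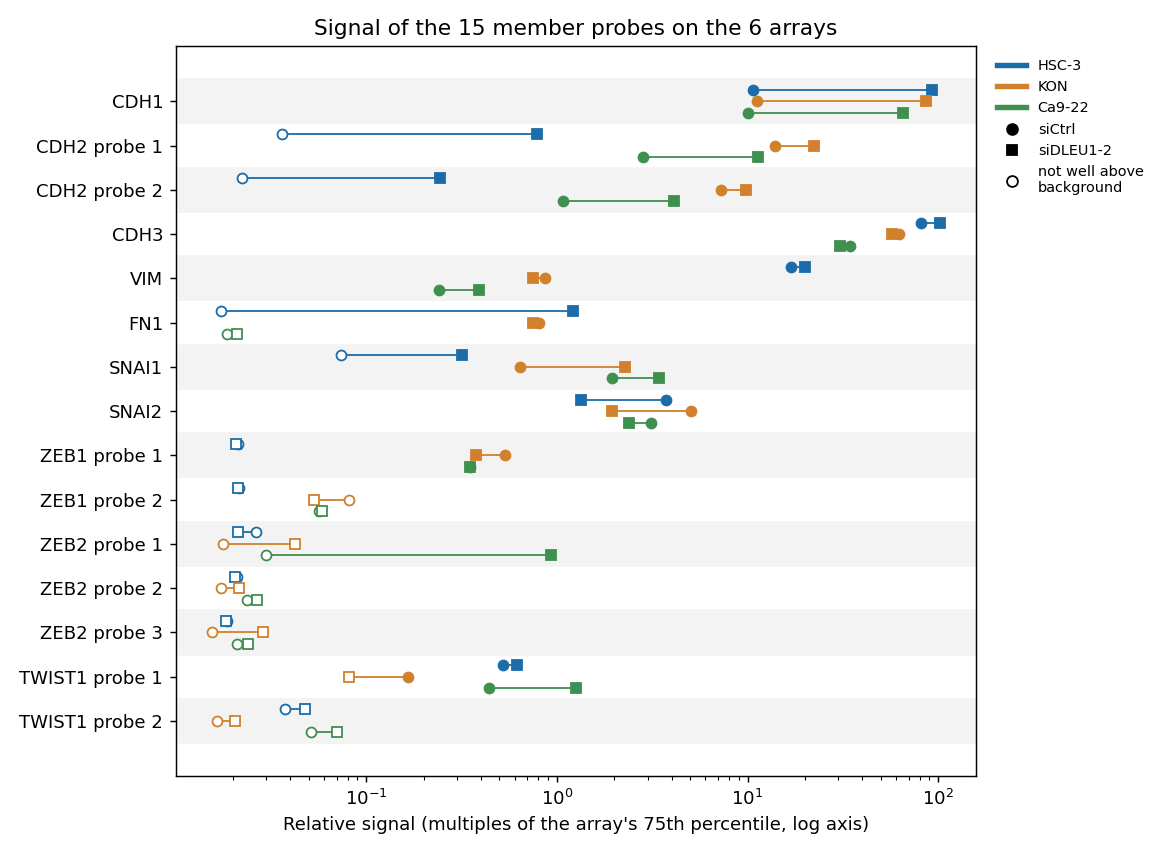
Relative signal (log axis) of the 15 member probes on the 6 arrays. Circles are siCtrl and squares siDLEU1-2, colors mark the cell lines, and open symbols are spots not well above background, which have no order among themselves; CDH1 lies between 10.1 and 11.3 after siCtrl and between 65.7 and 93.0 after siDLEU1-2.

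CDH1, which encodes the E-cadherin of epithelial adherens junctions, had the most even change among the 8 tested member probes. After siCtrl its relative signal was 10.71 (HSC-3), 11.3 (KON), and 10.1 (Ca9-22), and after siDLEU1-2 it was 93.0, 86.0, and 65.7. All 3 arrays with siDLEU1-2 were thus above all 3 controls, and the groups did not overlap. How many of all tested probes separate in this way was not counted. The log2 fold change was 3.12, 2.93, and 2.70, with a mean of 2.92 ± 0.21 (SD, n = 3 lines; adjusted p = 0.0227). The array carries 10 spots of this probe (chr16:68869214-68869273, hg19), and the 8 to 10 usable spots of each array had an SD of 0.036 to 0.067 in log2 units. An array measures the whole culture, so more cells with CDH1 and more CDH1 RNA per cell cannot be told apart. The call was lost without HSC-3 (adjusted p = 0.081) and without KON (adjusted p = 0.10), where limma called no probe of the whole array.

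CDH1 and SNAI1 were called higher and no member was called lower, that is 2 of the 8 tested member probes. SNAI1 passed the filter in HSC-3 through the brighter array only. Over all probes tested, 3.98% were called higher and 4.52% lower. CDH1 was also the only tested member probe that was over 2-fold higher in all 3 lines, and none was over 2-fold lower in all 3. The corresponding share of all tested probes was 2.08% in either direction. The median log2 fold change of all tested probes was 0.0073. Among the 4 member probes well above background on all 6 arrays, 1 was called, CDH1. With that filter, 991 of 18094 probes were called higher and 1074 lower.

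CDH2, the N-cadherin of mesenchymal and neural cells, was higher after siDLEU1-2 in every line, but by amounts too unequal to pass the test. Probe 1 (chr18:25530936-25530995) had a relative signal of 13.9 after siCtrl and 22.2 after siDLEU1-2 in KON, and 2.84 and 11.3 in Ca9-22. In HSC-3 it was not well above background after siCtrl, at 0.036, and reached 0.783 after siDLEU1-2, at least 9.37-fold higher than the detection limit of the control array. Thus the level in HSC-3 after knockdown was still below that of either other line after siCtrl. The mean log2 fold change was 2.37 ± 1.90 (SD, n = 3; adjusted p = 0.12), where Ca9-22 gave 1.99 and KON 0.67, and the HSC-3 value of 4.43 was read against the dim control. With that control raised to the detection limit, the mean was 1.97 (adjusted p = 0.070), and without HSC-3 it was 1.33.

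The second CDH2 probe, about 1 kb away (chr18:25532081-25532140), had the same order of lines. Its relative signal was 7.24 and 9.80 in KON, 1.07 and 4.13 in Ca9-22, and 0.022 and 0.243 in HSC-3, after siCtrl and siDLEU1-2. The HSC-3 control was again not well above background, and the array with siDLEU1-2 was at least 2.91-fold above its limit. The mean log2 fold change was 1.94 ± 1.502 (SD, n = 3; adjusted p = 0.11), 1.31 with the dim control raised, and 1.19 without HSC-3. With normexp background correction, probe 1 passed the test (log2 fold change 1.39; adjusted p = 0.035) and probe 2 did not (1.02; adjusted p = 0.060).

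CDH3, the P-cadherin of basal epithelial layers, was bright in every line and was not called. In HSC-3 its relative signal was 81.7 with siCtrl and 102 with siDLEU1-2, while KON gave 62.1 and 57.1 and Ca9-22 gave 34.5 and 30.4. The 3 lines differed in direction, and the mean log2 fold change of 0.0056 ± 0.27 (SD, n = 3; adjusted p = 0.99) changes sign under several other scalings. The CDH3 probe lies 136 kb from the CDH1 probe on chromosome 16, where both genes are neighbors.

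**Figure D2:**
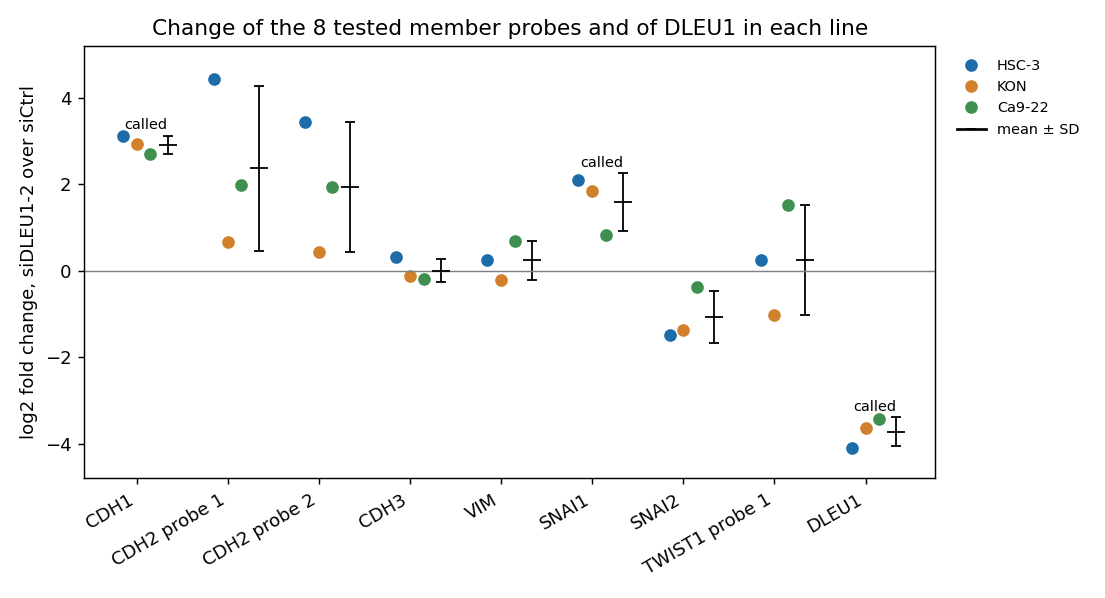
Log2 fold change of the 8 tested member probes and of DLEU1 in HSC-3, KON, and Ca9-22, with the mean ± SD over the 3 lines in black and "called" above probes with an adjusted p below 0.05. The 3 points of CDH1 lie between 2.70 and 3.12, while those of CDH2 probe 1 lie at 0.67 in KON and 1.99 in Ca9-22, with the HSC-3 point at 4.43 read against a control that was not well above background.

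Because CDH1 and CDH3 are neighbors, all probes within 500 kb of the CDH1 probe were examined. Of 26 such probes, 22 could be tested, and CDH1 was the only one called higher. Over all probes tested, 3.98% were called higher and 4.52% lower. In this window probes of 3 genes were called lower: ZFP90, a zinc finger protein gene (log2 fold change -0.80), HAS3, a hyaluronan synthase gene (-4.24), and SNTB2, which encodes beta-2-syntrophin (-0.97). A second probe of HAS3 stood at -0.30 (adjusted p = 0.24) and a second probe of SNTB2 at -0.80 (adjusted p = 0.087). The probes next to CDH1 on either side, XLOC_011769 at 110 kb and TMCO7 at 250 kb among those tested, had -0.30 (adjusted p = 0.52) and -0.98 (adjusted p = 0.059).

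**Figure D3:**
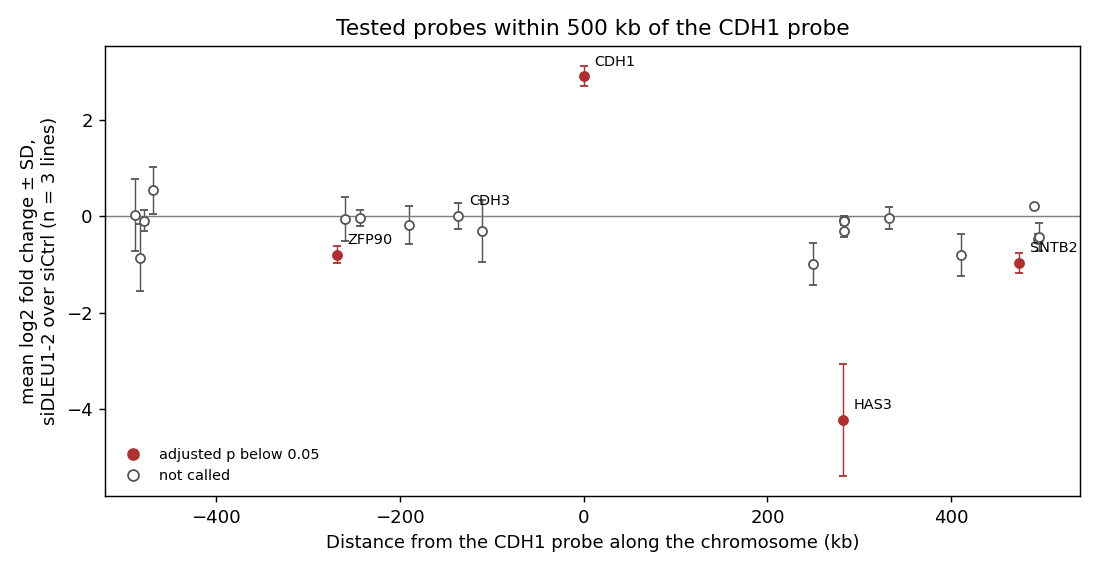
Mean log2 fold change ± SD over the 3 lines (vertical axis) of the 22 tested probes against their distance in kb from the CDH1 probe (horizontal axis). Filled red points have an adjusted p below 0.05; CDH1 is the only one of them above 0, and ZFP90, HAS3, and SNTB2 lie below it.

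VIM and FN1 are structural products by which mesenchymal cells are recognized. VIM encodes vimentin, an intermediate filament protein, and all 6 arrays measured it well above background. In HSC-3 its relative signal was 16.8 with siCtrl and 19.9 with siDLEU1-2, while KON gave 0.870 and 0.752 and Ca9-22 gave 0.241 and 0.389. The lines therefore stood far apart, while the siRNAs overlapped. The mean log2 fold change was 0.24 ± 0.45 (SD, n = 3; adjusted p = 0.50), with 0.25, -0.21, and 0.69 in HSC-3, KON, and Ca9-22.

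FN1 encodes fibronectin, an extracellular matrix glycoprotein. KON had a relative signal of 0.807 with siCtrl and 0.752 with siDLEU1-2. In HSC-3 it was not well above background after siCtrl, at 0.017, and was 1.22 after siDLEU1-2, at least 14.6-fold above the detection limit of the control array. In Ca9-22 both arrays were not well above background, so FN1 was not tested and no error can be given to the HSC-3 value. The bright HSC-3 spot was even, with a mean pixel signal of 328, a median of 323, and a pixel SD of 54.8. In HSC-3, 1347 probes were well above background only after siDLEU1-2 and 1286 only after siCtrl, and 38 of the former, FN1 included, had a bound as large as that of FN1.

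Among the transcription factors, SNAI1 was called higher and SNAI2, a member of the same family, was lower in every line without passing the test. SNAI1 (chr20:48605170-48605229) had a relative signal of 0.639 after siCtrl and 2.28 after siDLEU1-2 in KON, and 1.95 and 3.44 in Ca9-22. In HSC-3 it was not well above background after siCtrl, at 0.074, and was 0.317 after siDLEU1-2, at least 3.79-fold above the limit. The siCtrl and siDLEU1-2 ranges overlapped between lines, but within each line the array with siDLEU1-2 was higher. The mean log2 fold change was 1.58 ± 0.68 (SD, n = 3; adjusted p = 0.046), and 1.53 with dim values raised to the detection limit (adjusted p = 0.036). With normexp background correction the change was 0.97 (adjusted p = 0.038), and the call was lost without HSC-3 (adjusted p = 0.13) and without KON (adjusted p = 0.16).

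SNAI2, the Slug gene of chromosome 8, stood well above background throughout. In HSC-3 its relative signal was 3.74 with siCtrl and 1.34 with siDLEU1-2, while KON gave 5.04 and 1.96 and Ca9-22 gave 3.0996 and 2.40. Every array with siDLEU1-2 was below every control, and the smallest difference was in Ca9-22. The share of all tested probes that separate in this way was not counted. The log2 fold change was -1.48, -1.36, and -0.37, with a mean of -1.07 ± 0.61 (SD, n = 3; adjusted p = 0.077). SNAI1 and SNAI2, both known as repressors of CDH1, thus had mean changes of opposite sign, of which the one for SNAI1 passed the test.

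ZEB1 was seen by 1 of its 2 probes and only in KON and Ca9-22. The relative signal of probe 1 was 0.536 after siCtrl and 0.379 after siDLEU1-2 in KON, and 0.350 and 0.352 in Ca9-22. Both HSC-3 arrays, at 0.021, were not well above background, so the effect of siDLEU1-2 was not tested. Probe 2 was not well above background on any array.

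ZEB2 was measurable on 1 array only. Of its 3 probes, on 6 arrays each, 1 spot was well above background, that of probe 1 in Ca9-22 after siDLEU1-2, at 0.929. It was at least 10.1-fold above the limit of the siCtrl array, whose spot read 0.030. The pixels of this spot were uneven, with a mean of 259, a median of 175.5, and a pixel SD of 202, although the scanner software did not mark it as non-uniform. In Ca9-22, 1340 probes were well above background only after siDLEU1-2 and 1814 only after siCtrl, and 36 of the former, ZEB2 probe 1 included, had a bound as large.

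TWIST1 differed in direction between the lines. The relative signal of probe 1 in HSC-3 was 0.524 with siCtrl and 0.621 with siDLEU1-2, and in Ca9-22 it was 0.439 and 1.26. In KON it was 0.166 after siCtrl and fell below the limit after siDLEU1-2, at 0.082, at least 1.90-fold lower. The mean log2 fold change was 0.25 ± 1.27 (SD, n = 3; adjusted p = 0.78), and it was -0.39 without Ca9-22. Probe 2 was not well above background on any array, so the direction rests on a single probe.

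The levels of the members were then compared between the lines, with both arrays of a line and the siRNA as a term in the model. The 11 member probes with 1 or more arrays well above background could be tested, which gives 33 pairs, of which 12 were called. HSC-3 and KON differed for 5 probes, HSC-3 and Ca9-22 for 6, and KON and Ca9-22 for 1. Of all 27993 probes tested in this way, 22.3%, 22.8%, and 22% were called for these pairs.

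VIM was the only member for which all 3 lines differed. It was 22.6-fold higher in HSC-3 than in KON (adjusted p = 0.011), 59.8-fold higher in HSC-3 than in Ca9-22 (adjusted p = 0.0082), and 2.64-fold higher in KON than in Ca9-22 (adjusted p = 0.047). The last of these calls was lost when arrays were centered on probes detected on all arrays (adjusted p = 0.062).

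CDH2, SNAI1, and ZEB1 were lowest in HSC-3, the line with the highest VIM. For CDH2 probe 1, HSC-3 minus KON was -6.71 ± 0.997 (SE) on the log2 scale (adjusted p = 0.028) and HSC-3 minus Ca9-22 was -5.07 (adjusted p = 0.042). With the dim HSC-3 control raised to the detection limit these differences were -6.11 and -4.47, and with normexp they were -4.89 and -3.34. KON and Ca9-22 did not pass the test for either CDH2 probe (adjusted p = 0.29 and 0.15), except that with normexp both did and with dim values raised probe 2 did. For SNAI1, HSC-3 minus KON was -2.98 (adjusted p = 0.023) and HSC-3 minus Ca9-22 was -4.08 (adjusted p = 0.015) on the log2 scale, and KON against Ca9-22 was not called (adjusted p = 0.13). These SNAI1 differences also include the dim HSC-3 control: they were -2.89 and -3.99 with it raised to the detection limit, and -1.66 and -2.53 with normexp, and were called under both. ZEB1 probe 1 was at least 5.41-fold higher in KON (adjusted p = 0.0085) and at least 4.22-fold higher in Ca9-22 (adjusted p = 0.0091) than in HSC-3. This probe entered the comparison through the KON and Ca9-22 arrays only, as both HSC-3 spots were not well above background, so both calls compare bright spots with values that are only bounds. With normexp, which adds an offset to every signal, HSC-3 minus KON was -1.22 and HSC-3 minus Ca9-22 was -0.99 on the log2 scale.

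CDH3 was 2.82-fold higher in HSC-3 than in Ca9-22 (adjusted p = 0.028), with KON between them and neither neighbor distinguished from it (adjusted p = 0.13 and 0.069). CDH1 and SNAI2 differed between no pair of lines; the widest CDH1 difference was 1.22-fold, between HSC-3 and Ca9-22 (adjusted p = 0.34). FN1 in KON was at least 8.03-fold above Ca9-22, although the fitted difference was not called (adjusted p = 0.12), as the spread includes the HSC-3 pair. With normexp the FN1 difference was 2.17 on the log2 scale. TWIST1 probe 1 was lowest in KON, with an adjusted p of 0.089 against HSC-3 and 0.068 against Ca9-22.

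For the 4 member probes that all 6 arrays measured well above background, the genes whose levels ran most alike were found among the 18094 probes with that property. These are Pearson correlations over 6 arrays that share lines and siRNAs, given as a description. For CDH1 they were PARD6B, a gene of the cell polarity complex (r = 0.992), SEC24A, of the vesicle coat that leaves the endoplasmic reticulum (r = 0.992), and COQ10B (r = 0.992). PARD6B was higher after siDLEU1-2 by 1.72 and SEC24A by 2.05 on the log2 scale as a mean over the lines. This direction follows from how the genes were chosen, since CDH1 itself separated the siRNAs, and is no further result. For VIM they were CHMP3 (r = 0.996), ATP5S (r = 0.995), and ITM2B (r = 0.995), which follow the order of the lines. For CDH3 they were C9orf46 (r = 0.997), NRD1 (r = 0.994), and FAM108A1 (r = 0.994). For SNAI2 they were IKBKAP (r = 0.993), CAV1, which encodes caveolin-1 (r = 0.987), and C12orf54 (r = 0.982).

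Genes known from the same program were examined as lists. Where a gene has several tested probes, the one with the highest mean signal stands for it, as a rule of choice only. Of 21 other epithelial genes, 20 could be tested, 7 were called higher, none was called lower, and their median log2 fold change was 0.81. These were OCLN, which encodes occludin (2.51), the claudin genes CLDN4 (1.87) and CLDN7 (1.02), TJP1, which encodes the scaffold ZO-1 (0.74), the simple-epithelial keratin genes KRT8 (2.47) and KRT18 (1.40), and the transcription factor gene OVOL1 (1.69). CLDN1 stood at 0.022 (adjusted p = 0.98), and CLDN3 could not be tested. The list members with a mean below 0 were DSP (-0.58), ESRP1 (-0.44), and ESRP2 (-0.24), and none of them was called. KRT8 and KRT18 have many processed pseudogenes, and the other KRT8 probes stood at 2.86 (adjusted p = 0.073) and 0.10 (adjusted p = 0.82). The other OCLN probe stood at 1.68 (adjusted p = 0.19). Of the 8 squamous markers, 3 were called lower, beside 4.52% of all tested probes: KRT6A, a keratin of activated keratinocytes (-1.33), TP63, the regulator of the basal layer (-2.46), and SFN (-0.81). The remaining markers were not called, with EPCAM at 1.09, KRT17 at 0.14, KRT14 at 0.0080, PERP at -0.17, and KRT5 at -1.14. TP63 was well above background on 5 arrays, but not in Ca9-22 after siDLEU1-2. It thus passed the filter in that line through the brighter array only, and its change there was read against a dim value.

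Of 18 other mesenchymal genes, 13 could be tested, 6 were called higher, none was called lower, and the median was 0.92. They were S100A4, a calcium-binding protein gene (2.42), CNN1, a calponin gene of smooth muscle (2.13), the collagen genes COL5A2 (1.57) and COL1A1 (1.45), the receptor tyrosine kinase gene AXL (0.92), and the integrin gene ITGAV (0.89). CNN1 and COL5A2 were well above background on 5 arrays and so passed the filter in 1 line through the brighter array only; among probes well above background on all arrays, 4 mesenchymal genes were called. COL1A1 also stands in the fibroblast marker list, whose summed relative signal was 0.788 to 0.945 after siCtrl and 1.78 to 2.98 after siDLEU1-2. The sum runs over probes of different brightness, 6 of the 8 of them never well above background, and the part of such cells in the result was not tested. Genes not called included TNC (-0.74; adjusted p = 0.070), TAGLN (1.32; adjusted p = 0.16), and ACTA2 (-0.65; adjusted p = 0.16). Both the epithelial and the mesenchymal list thus held genes called higher and none called lower, beside 3.98% of all tested probes called higher. Without HSC-3 or without KON no gene of either list was called, and without Ca9-22 4 epithelial genes and no mesenchymal gene were called.

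**Figure D4:**
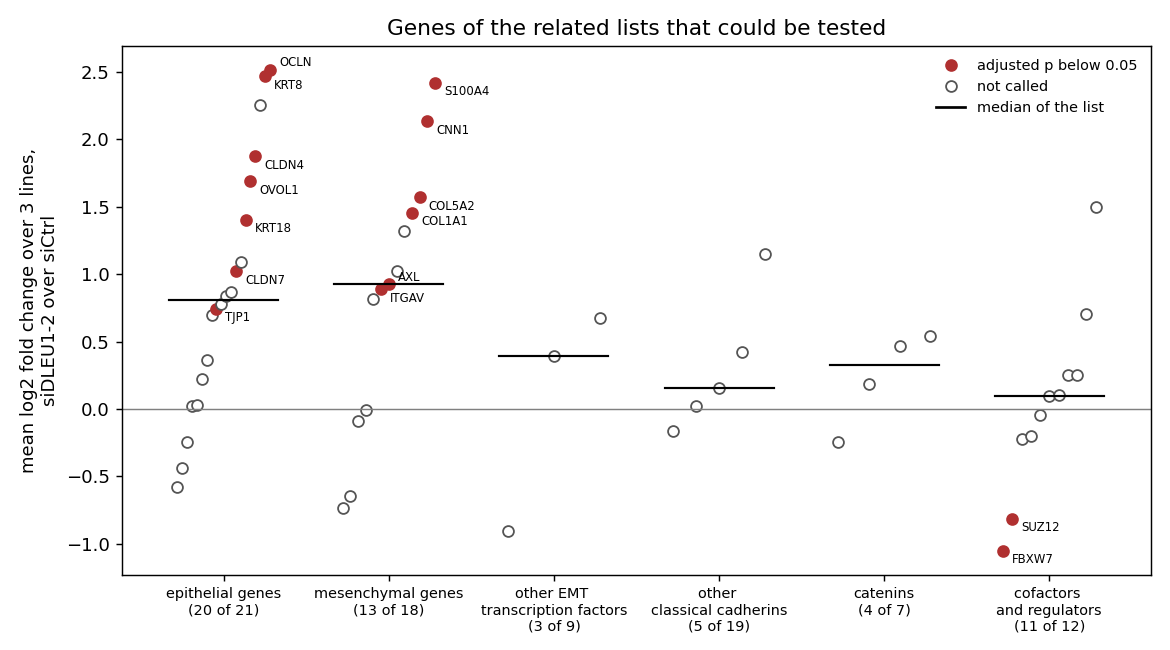
Mean log2 fold change over the 3 lines of each gene that could be tested in 6 lists of related genes; the numbers under each name are the genes tested and the genes listed. Filled red points have an adjusted p below 0.05, and black bars are list medians, at 0.81 for the epithelial and 0.92 for the mesenchymal genes.

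Other EMT transcription factors gave little signal. Of 9 genes, only TCF3 (log2 fold change 0.40; adjusted p = 0.14), TCF4 (-0.91; adjusted p = 0.29), and SOX9 (0.68; adjusted p = 0.37) could be tested, and none was called. SNAI3, TWIST2, PRRX1, FOXC2, GSC, and KLF8 did not pass the filter on dim probes. Of all tested probes 3.98% were called higher and 4.52% lower, so 0 of 3 is near the share over the whole array.

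Of 19 other cadherins, 5 could be tested and none was called. These were CDH5, the cadherin of endothelial junctions (1.15; adjusted p = 0.11), CDH13 (0.42; adjusted p = 0.26), CDH22 (-0.16; adjusted p = 0.47), CDH24 (0.16; adjusted p = 0.54), and CDH26 (0.020; adjusted p = 0.98). Catenins link cadherins to actin, and of 7 catenin genes 4 could be tested and none was called. CTNNA1, of alpha-catenin, stood at 0.54 (adjusted p = 0.084), JUP, of plakoglobin, at 0.47 (adjusted p = 0.12), CTNND1, of p120, at 0.19 (adjusted p = 0.48), and CTNNB1, of beta-catenin, at -0.25 (adjusted p = 0.30). With 3.98% of all tested probes called higher and 4.52% lower, 0 of 5 cadherins and 0 of 4 catenins are near the share over the whole array. With normexp background correction, 1 catenin gene was called.

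The last list held cofactors through which SNAI and ZEB proteins are known to act and regulators of their stability. Of 12 genes, 11 could be tested, none was called higher, and 2 were called lower, beside 4.52% of all tested probes called lower. These were SUZ12, a subunit of Polycomb repressive complex 2 (-0.81), and FBXW7, the substrate receptor of a ubiquitin ligase (-1.05). EZH2, of the same Polycomb complex, stood at -0.22 and was not called. KDM1A, a histone demethylase gene, had the highest mean of the list at 1.498 without passing the test (adjusted p = 0.079). A second probe of CTBP2, a corepressor gene, was called at 0.79 (adjusted p = 0.044), while the probe that stands for it was not (0.70; adjusted p = 0.070).

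Promoter windows from RefSeq (GRCh38.p14), from 250 bases before to 50 after the start of a gene, were matched for CDH2, VIM, FN1, ZEB1, and ZEB2. E-boxes (CANNTG, both strands), the motif class bound by SNAI, ZEB, and TWIST proteins, lie in 68.7% of all 35116 windows. Their form CACCTG or CAGGTG lies in 20.6%, and the GC box GGGCGG or CCGCCC in 45.0%. The upstream part of the first CDH2 window (chr18:28177131-28177380, minus strand) is shown because CDH2 is the cadherin whose gain marks EMT. Its GC box is in capitals.
CDH2 upstream: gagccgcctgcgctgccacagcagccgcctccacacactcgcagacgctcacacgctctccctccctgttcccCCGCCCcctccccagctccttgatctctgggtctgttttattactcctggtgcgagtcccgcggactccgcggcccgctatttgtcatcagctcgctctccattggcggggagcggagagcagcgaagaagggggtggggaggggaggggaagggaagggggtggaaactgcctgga
This window holds 0 E-boxes and 1 GC box, and the second CDH2 window (chr18:28036592-28036891) holds 1 E-box and 0 GC boxes. The windows of VIM and FN1 also hold 0 E-boxes, that of ZEB2 holds 1, and 1 of the 7 ZEB1 windows holds 3 of the form CACCTG or CAGGTG. These counts describe the letters of the windows and say nothing about binding.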

How the data were processed

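The authors hybridized 6 one-color arrays and deposited the scanner output of Agilent Feature Extraction (10.7 per the labels), in which each spot has an intensity after background subtraction, on a linear scale and not normalized between arrays. Their series table matches that intensity within 0.497%. Here log2 signals were taken relative to the array's 75th percentile, control and outlier spots were left out, and spots of a probe were averaged. A probe counted as well above background with 50% or more of its spots marked so. Of 50599 probes, 19956 passed the filter and 55 could not be measured on all arrays. No spot was saturated. The number of arrays limits the precision.

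limma 3.58.1 (R 4.3.3) was fitted with siRNA and cell line as terms, with Benjamini-Hochberg adjustment over all tested probes; probes with an adjusted p below 0.05 are called. Cell line is blocked since it pairs the arrays; deviations from the siRNA means correlated within the pairs at 0.83, 0.81, and 0.82. Nothing in the labels says how many cultures each array stands for. The fit was tested on simulated data. Bounds compare a bright spot with the lowest signal of any probe well above background on the dim array. Alternatives were quantile normalization, 2 other centerings, normexp (offset 50), the series table, 3 other treatments of dim probes, a gene's probes averaged, other fold thresholds, the methods' t-test, a fit with no block, and each line left out. All member probes are named, as are the called genes of each list and the 3 genes most like each member. The members and lists were chosen with earlier results of these data known, and the 500 kb window was set with the values in view. Probe positions are those of the files (hg19); the part of the transcript a probe lies in was not determined.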

Additional observations from a re-analysis of the deposited data

Results flagged for a closer look

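The following 3 tested members moved in opposite directions in different lines; each line has 1 array per siRNA, so the differences between lines were not tested. TWIST1 probe 1 had the widest gap, 2.54 on the log2 scale between Ca9-22 (1.52) and KON (-1.02, where the array with siDLEU1-2 was not well above background). For VIM the gap was 0.90, between Ca9-22 (0.69) and KON (-0.21). For CDH3 it was 0.50, between HSC-3 (0.32) and Ca9-22 (-0.18).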

How the results depend on the processing

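CDH1 was higher under all 13 alternatives, by 2.82 to 3.03 on the log2 scale. Its call was lost with no filter on dim probes (2.92; adjusted p = 0.14), without the replicate block of cell line (2.92; adjusted p = 0.13), and with the methods' t-test (2.92; adjusted p = 0.22). SNAI1 lost its call under the same 3 (1.58 in each; adjusted p = 0.19, 1.0, and 1.0) and was not tested where probes had to be well above background on all arrays, which left 1 member probe called. Under the first 3 alternatives 0 member probes, 0 probes of the whole array, and 0 genes of the epithelial, mesenchymal, and cofactor lists were called; with an unadjusted p below 0.05 they gave 6816, 1357, and 1373 probes, 5, 2, and 2 of them members, and without HSC-3 and without KON 4547 and 4676 probes, 3 and 4 of them members. Leaving out a line gave 2.82 to 3.03 for CDH1, 1.33 to 1.97 for SNAI1, 1.33 to 3.21 and 1.19 to 2.69 for the CDH2 probes, -1.42 to -0.87 for SNAI2, 0.018 to 0.47 for VIM, -0.15 to 0.10 for CDH3, and -0.39 to 0.88 for TWIST1, with 0 to 2 member probes, 0 to 127 probes higher, 0 to 117 lower, 0 to 4 epithelial genes, and 0 mesenchymal and cofactor genes called. CDH3 turned negative with median centering (-0.067), quantile normalization (-0.080), centering on probes detected on all arrays (-0.020), and normexp (-0.025). CDH2 probe 1 was called only with normexp (1.39), which also called 1 catenin gene. At a 1.5-fold threshold 3 member probes passed in all 3 lines: CDH1, SNAI1, and CDH2 probe 1. SNAI1 and CDH2 probe 1 were read in HSC-3 against a control not well above background. The share of all tested probes at this threshold was not counted. HSC-3 minus KON changed sign for CDH1 under quantile normalization (-0.069), centering on probes detected on all arrays (-0.053), and normexp (-0.050), and for ZEB2 probe 1 under normexp (0.14) and with dim values raised (0.095); HSC-3 minus Ca9-22 did so for CDH1 under quantile normalization (-0.066). Of the other line differences under these alternatives, 183 kept their sign and side of the threshold, 8 became called (KON against Ca9-22 for both CDH2 probes, CDH3, SNAI1, and TWIST1 probe 1 with normexp, and for CDH2 probe 2, CDH3, and TWIST1 probe 1 with dim values raised), and 1 lost its call.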
